A study of Mus musculus with 6 samples.

Results

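The suppressors of cytokine signalling (SOCS) family was examined in naive CD8 T cells by selecting the rows of the deposited expression table whose symbol was Socs1, Socs2, Socs3, Socs4, Socs5, Socs6, Socs7 or Cish. Of these 8 genes 7 were among the 11162 genes listed, and Socs2 was not among them. The set was chosen by RPKM values of these same libraries, namely a lower Socs3 level in the brighter reporter population, so the differences of its members between the populations are a description and carry no test. The cells came from the spleen of Nur77-GFP mice, Tg(Nr4a1-EGFP)GY139Gsat, in which a transgene with the control regions of Nr4a1 drives green fluorescent protein. All 6 libraries shared this transgene and the sort for CD8+ CD44lo CD62Lhi Qa2hi OT-I cells, where OT-I is a transgenic T-cell receptor that gives the cells 1 specificity. They differed in reporter brightness, with 3 libraries of GFP-hi and 3 of GFP-lo cells. The age, sex and number of mice and any treatment were not given in the sources used here, nor whether the libraries came from separate mice, so p-values measure only the spread between these libraries, which may be technical.

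SOCS proteins are brakes on cytokine receptors. A cytokine brings together receptor chains whose JAK kinases phosphorylate STAT transcription factors, and the STATs then switch on SOCS genes, whose products bind receptors or JAKs through an SH2 domain. Through the SOCS box at their end they join elongins B and C and cullin 5 in a ubiquitin ligase that marks the bound protein for destruction. SOCS1 and SOCS3 also block JAK activity directly. In T cells SOCS1 restrains interferon gamma and the cytokines that use the common gamma chain, SOCS3 restrains receptors built on gp130, the product of Il6st, and CIS, the product of Cish, is induced by STAT5 and restrains interleukin 2 and T-cell receptor signals.

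The letters around the starts of the 3 members with the closest ties to JAK-STAT signalling are shown, since they hold matches to motifs of the factors that these pathways activate. RefSeq promoter windows of 300 bases on GRCm38.p6, the assembly also called mm10, matched 4 of the 8 symbols (Socs1, Socs3, Socs4 and Cish). Both strands were searched for the STAT motif TTCNNNGAA, for the interferon regulatory factor motif, GAAA followed after any 2 bases by GAAA, for the heat-shock element, GAA, TTC and GAA with any 2 bases between neighbours, for the AP-1 motif TGANTCA and for the cyclic AMP response element TGACGTCA. Stretches are written 5′ to 3′ on the strand of the gene, with matches in capitals, to the STAT motif in Socs3 and Cish and to the interferon regulatory factor motif in Socs1.
Socs3: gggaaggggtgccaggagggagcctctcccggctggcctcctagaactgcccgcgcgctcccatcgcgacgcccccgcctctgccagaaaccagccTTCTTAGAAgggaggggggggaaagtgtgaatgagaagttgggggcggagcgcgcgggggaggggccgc
Socs1: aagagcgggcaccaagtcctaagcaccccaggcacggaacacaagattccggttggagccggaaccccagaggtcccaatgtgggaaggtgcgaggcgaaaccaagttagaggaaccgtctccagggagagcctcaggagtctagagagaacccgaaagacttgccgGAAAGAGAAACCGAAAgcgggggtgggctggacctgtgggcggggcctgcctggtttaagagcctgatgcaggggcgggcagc
Cish: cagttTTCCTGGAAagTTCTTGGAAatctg
The Socs3 stretch lies on the minus strand at chr11:117969452-117969616, before the RefSeq start at 117969366. Its single match, TTCTTAGAA, begins 154 bases before that start, and in GENCODE M21 it falls within a Socs3 transcript but in no exon. The RefSeq gene as a whole reaches further, to 117970336. The Socs1 stretch, chr16:10785537-10785786 on the minus strand, ends at the base before the start, and its 2 matches overlap each other from 83 to 68 bases before the start, upstream of the gene model. The Cish stretch, chr9:107296654-107296683 on the plus strand, crosses the RefSeq start at 107296659, and GENCODE M21 places both of its matches in exon 1, within the untranslated region. The first of them, TTCCTGGAA, begins at the start base itself and TTCTTGGAA follows after 2 bases.

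A STAT match was present in 8.30% of the 32851 promoter windows of the table, and 2 or more matches, as in Cish, in 0.457%. The interferon regulatory factor motif was matched in 3.44% of windows and at least 2 times, as in Socs1, in 0.225%. None of the 4 members' windows matched the heat-shock element (0.603% of windows), AP-1 (7.81%) or the cyclic AMP element (1.79%), and the Socs4 window matched none of the 5 motifs. A match is a stretch of letters, and no binding was measured here.

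Levels were given in RPKM, a read count corrected for both gene length and library depth, so that genes can be set side by side per length. Socs3 stood far above the rest of the family, with a mean of 53.0 RPKM over the 6 libraries, a level above that of 94.9% of listed genes. Socs1 followed at 7.25 RPKM, near the middle of all listed genes (52.7% lay below it). Socs5 (2.62 RPKM), Socs4 (2.11 RPKM) and Socs6 (1.75 RPKM) formed a low group, and Socs7 (0.754 RPKM) and Cish (0.390 RPKM) came last. The ranges of Socs5 and Socs4 over libraries overlapped, as did those of Socs4 and Socs6, although the order of these 3 genes was the same in 6 of 6 libraries. The ranges of the other neighbours did not overlap, but the highest Cish value, 0.594 RPKM, came close to the lowest Socs7 value, 0.601 RPKM. Socs3 alone made up 67.4%, 74.4% and 72.3% of the summed RPKM of the 7 members in GFP-hi replicates 1 to 3, and 82.1%, 82.8% and 80.5% in GFP-lo replicates 1 to 3. The sum of the other 6 members ran from 13.2 to 15.7 RPKM in GFP-hi and from 13.9 to 16.5 RPKM in GFP-lo libraries, so the 2 ranges overlapped.

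**Figure D1:**
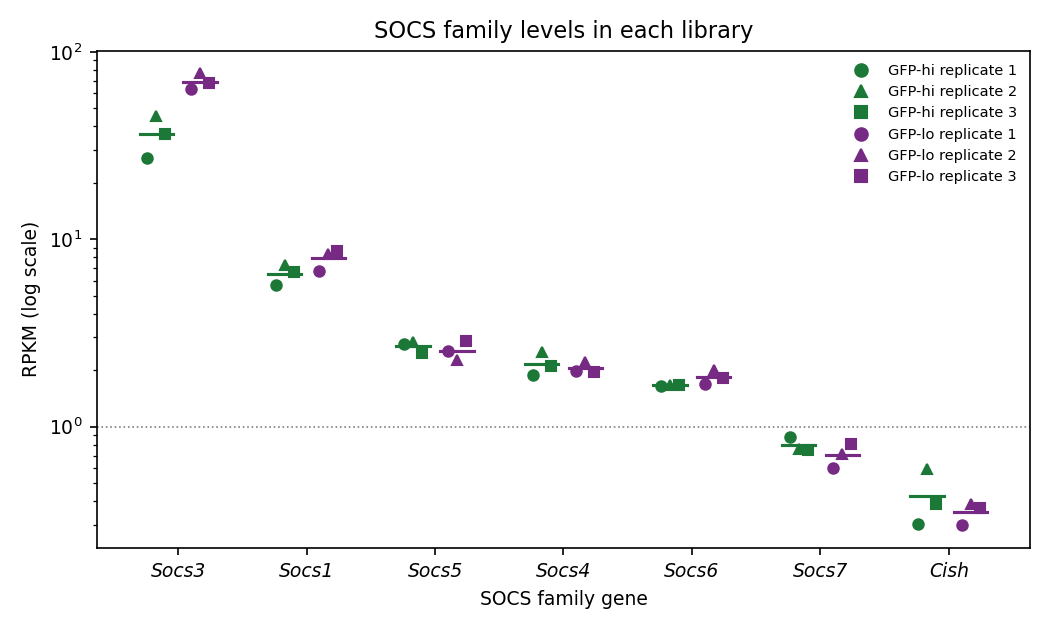
RPKM of the 7 listed SOCS family genes on a log axis, with 1 point for each of 3 GFP-hi (green) and 3 GFP-lo (purple) libraries and a line at each group's mean; the dotted line marks the minimum mean of 1 RPKM for the fit. The 3 GFP-hi points of Socs3 (27.3 to 45.6) lie below its 3 GFP-lo points (63.4 to 76.9), while the points of Socs1, Socs5, Socs4, Socs7 and Cish overlap between the populations.

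Read depth, recovered from the step that 1 read makes in low RPKM values, was 26.2 to 35.9 M reads per library. For the longest coding transcript of each gene in GENCODE M21 this corresponds to about 1984 to 5813 reads of Socs3 per library, 474 to 721 of Socs1 and 24 to 57 of Cish. Counting error alone was thus about 2.25% of the Socs3 value in the library with the fewest reads, but 20.2% of the Cish value. Reads include PCR copies, so these are lower limits of the error. In bulk RNA a lower level may reflect fewer expressing cells or less RNA in each cell, and the 2 cannot be told apart.

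Socs3 (Entrez 12702), which restrains signals through gp130, was the member that differed most. It had 27.3, 45.6 and 36.6 RPKM in GFP-hi replicates 1, 2 and 3 and 63.4, 76.9 and 68.2 RPKM in GFP-lo replicates 1, 2 and 3. Every GFP-hi library lay below every GFP-lo library, and replicate 2 was the highest in both populations. GFP-hi cells averaged 36.5 ± 9.14 and GFP-lo cells 69.5 ± 6.83 RPKM (SD, n = 3 each), a ratio of 0.526. On the log2(RPKM + 1) scale, used for all fold changes here and taken as GFP-hi over GFP-lo, Socs3 stood at -0.93 (SE 0.164, 95% interval -1.31 to -0.56). Of the 9351 genes with a mean of at least 1 RPKM, 10 had a more negative fold change.

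Socs1 (Entrez 12703), the inhibitor of interferon gamma and common gamma chain signals, had 5.73, 7.31 and 6.67 RPKM in GFP-hi replicates 1 to 3 and 6.76, 8.33 and 8.70 RPKM in GFP-lo replicates 1 to 3. The groups overlapped, because GFP-hi replicate 2 exceeded GFP-lo replicate 1. Averages were 6.57 ± 0.793 against 7.93 ± 1.03 RPKM (SD, n = 3 each), and the log2 fold change was -0.24 with an interval from -0.48 to 0.0085.

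Cish (Entrez 12700), a classical target of STAT5, had the lowest level of the listed members. It reached 0.301, 0.594 and 0.388 RPKM in GFP-hi and 0.298, 0.386 and 0.370 RPKM in GFP-lo replicates 1 to 3. GFP-hi replicate 2 stood above the other 5 libraries, which lay between 0.298 and 0.388 RPKM. With all genes kept in the fit its log2 fold change was 0.07 with an interval from -0.16 to 0.31, and at so low a level a pseudocount of 1 compresses any change.

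Socs4 to Socs7, the members with long N-terminal regions, have been tied to growth factor and receptor tyrosine kinase signalling more than to JAK-STAT pathways. Socs6 (Entrez 54607) had 1.65, 1.67 and 1.67 RPKM in GFP-hi and 1.69, 2.01 and 1.82 RPKM in GFP-lo replicates 1 to 3. The groups did not overlap, but the gap between them was small, and the log2 fold change was -0.09 with an interval from -0.26 to 0.07. Socs5 (Entrez 56468) had 2.77, 2.84 and 2.49 RPKM against 2.52, 2.27 and 2.85 RPKM, a log2 fold change of 0.06 (interval -0.13 to 0.25). Socs4 (Entrez 67296) had 1.88, 2.50 and 2.10 RPKM against 1.99, 2.23 and 1.97 RPKM, a log2 fold change of 0.04 (interval -0.16 to 0.25). In both genes the populations overlapped and the sign of the fold change varied between settings. Socs7 (Entrez 192157), below the minimum for the fit, had 0.881, 0.763 and 0.750 RPKM against 0.601, 0.714 and 0.812 RPKM, with a log2 fold change of 0.07 (interval -0.12 to 0.27) once all genes were kept.

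Across all genes, 369 of 9351 tested genes (3.95%) had an adjusted p under 0.05 (limma on log2(RPKM + 1), Benjamini-Hochberg). In GFP-hi 230 of them (2.46% of those tested) were higher and 139 (1.49%) lower, and scaling by trimmed mean of M values gave 203 higher and 184 lower. An unadjusted p under 0.05 was found for 20.2% of tested genes. Of the 5 members tested, Socs3 was among them and no other member was, and without GFP-hi replicate 3 or any 1 of the 3 GFP-lo libraries the number was 0. Socs3 and Socs6 were the members whose groups did not overlap, both with GFP-hi lower. Groups did not overlap in 26.9% of all tested genes, with GFP-hi higher in 17.1% and lower in 9.84%. The median log2 fold change of the 5 tested members was -0.09, beside 0.02 for all tested genes. Since the set was chosen with this comparison in view, nothing is read from these counts.

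**Figure D2:**
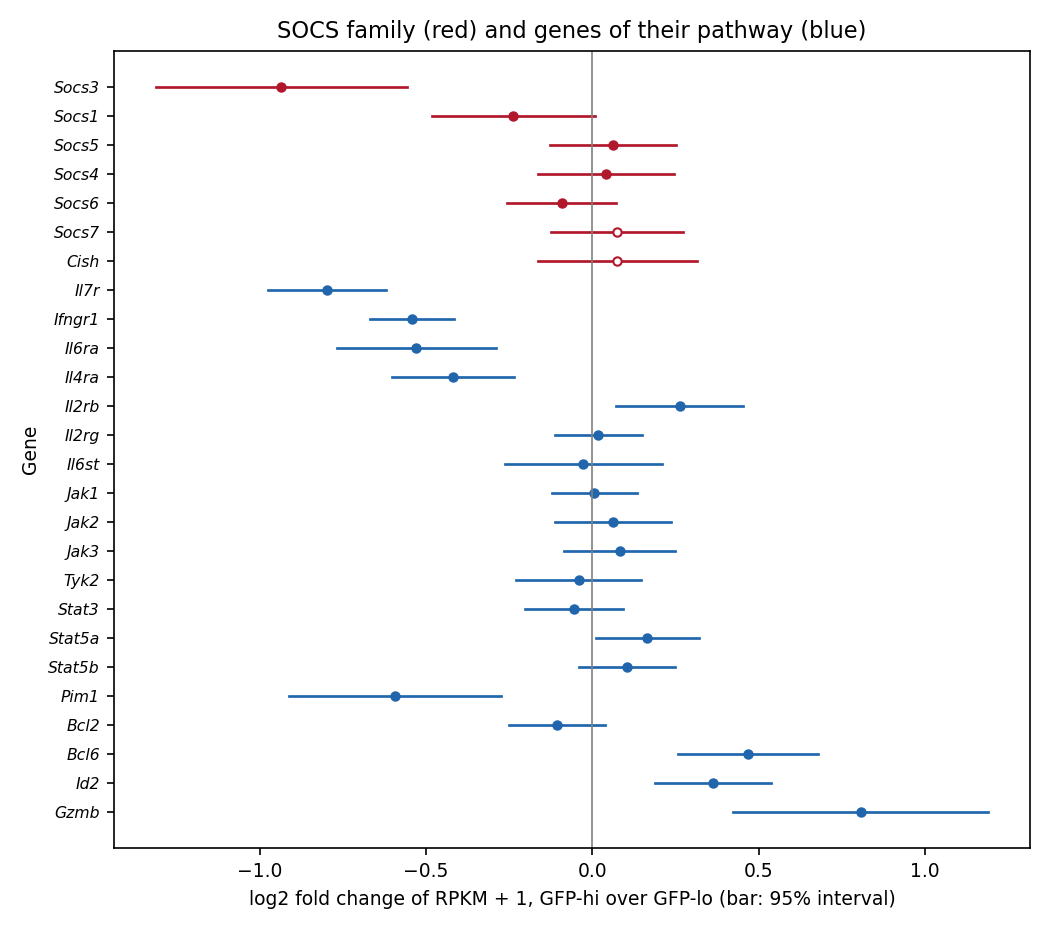
Log2 fold change of RPKM + 1, GFP-hi over GFP-lo, with its 95% interval for the 7 listed SOCS genes (red; open points, Socs7 and Cish, come from the fit without a filter) and 19 genes of their pathway (blue). Socs3 lies at -0.93 and the interleukin 7 receptor gene Il7r at -0.80, whereas the intervals of the JAK genes and of Stat3 cross 0.

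Several SOCS genes are switched on within a short time of stimulation, as immediate early genes are, and the libraries differed in immediate early and heat-shock transcripts. Hspa1a and Hspa1b, which encode inducible heat-shock chaperones, had 1100 and 1904 RPKM in GFP-hi replicate 2 and 1234 and 2133 RPKM in GFP-lo replicate 2. In the other 4 libraries they reached at most 235 and 503 RPKM. Of 36 immediate early and heat-shock genes named, with SOCS genes left out, 32 were tested, and replicate 2 was the highest library for 31 of them in GFP-hi and for 30 in GFP-lo. Their mean log2(RPKM + 1) was 6.21, 7.04 and 6.25 in GFP-hi and 6.43, 7.12 and 6.43 in GFP-lo replicates 1 to 3, so that GFP-hi was lower than GFP-lo both in replicate 2 and in replicates 1 and 3.

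Socs3 was 1.43 times as high in GFP-hi replicate 2 as in the mean of replicates 1 and 3, and 1.17 times as high in GFP-lo replicate 2. The corresponding ratios were 1.48 and 1.34 for the AP-1 gene Fos and 7.11 and 5.53 for Hspa1a. Cish was 1.72 and 1.16 times as high in replicate 2, Socs4 1.25 and 1.13 times, and Socs1 1.18 and 1.08 times, although Socs1 was highest in replicate 3 in GFP-lo. Socs7 was not highest in replicate 2 in either population, and Socs5 was highest there in GFP-hi but lowest there in GFP-lo. With a pooled within-group SD of 0.273 on the log2(RPKM + 1) scale, Socs3 varied more between libraries of a population than 97.1% of tested genes, whose median SD was 0.0897. Socs1 (0.163) varied more than 87.4% of them and Socs6 (0.0569) more than 19.7%.

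These 32 genes are called handling genes here. The labels do not give that name, and the cause of their rise in replicate 2 was not tested. Socs3 was lower in GFP-hi both between the replicate 2 libraries and among the others. Between the replicate 2 libraries, 1 of each population and so without a test, Socs3 differed by -0.74 on the log2(RPKM + 1) scale. Among the other 4 libraries the difference was -1.03 (SE 0.135). With the mean of the 32 handling genes, Nr4a1 among them, as a covariate it was -0.85 (SE 0.107). Of the 32, 23 were lower and 9 higher by sign, with a median log2 fold change of -0.18. None passed the threshold (limma, adjusted p), and 2 had an unadjusted p under 0.05, against 3.95% and 20.2% of all tested genes. These 2, Junb (-0.47) and Cebpb (-0.67), were lower in every GFP-hi library than in any GFP-lo library. In the 4 libraries without replicate 2, Junb (-0.54; limma, adjusted p = 0.032) and Hspa1a (-0.52; limma, adjusted p = 0.046) passed as lower. Hspa1b, Fos and Nr4a1 did not pass there. The part that the response of these genes has in the level of Socs3 was not tested beyond these values.

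**Figure D3:**
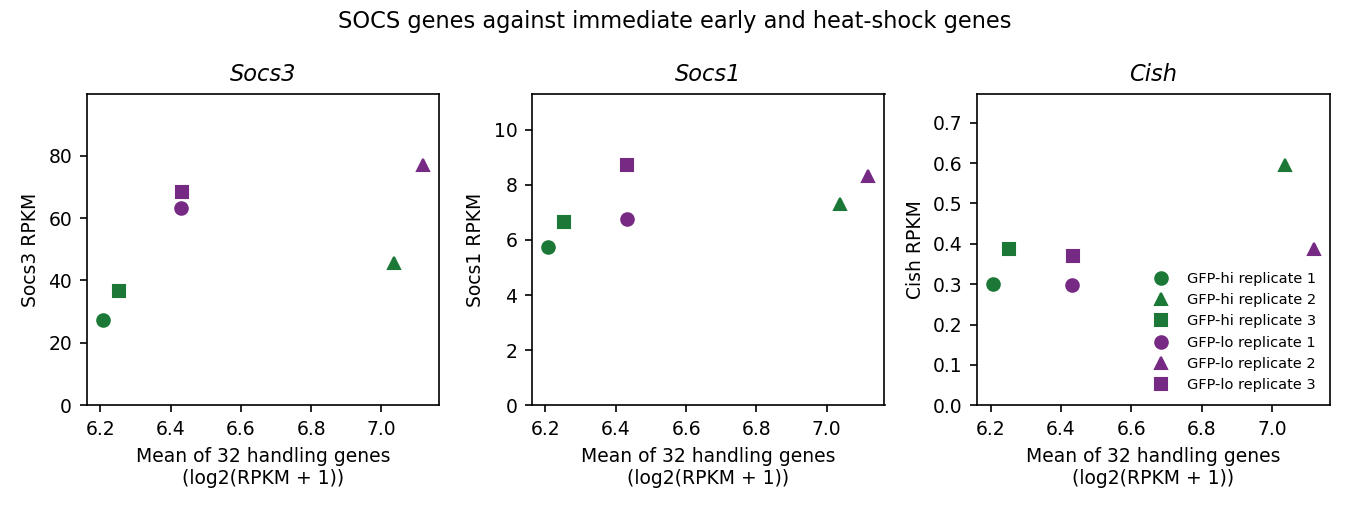
RPKM of Socs3, Socs1 and Cish (y axes, from 0) against the mean log2(RPKM + 1) of 32 handling genes in each library. The replicate 2 libraries (triangles) lie to the right in both populations, and the Socs3 points of GFP-lo (63.4 to 76.9) lie above those of GFP-hi (27.3 to 45.6) at either end of the axis.

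Nr4a1, the gene whose control regions drive the reporter, is itself among the handling genes, so its rise in replicate 2 is already counted above. It was highest in replicate 2 of each population but did not separate the populations. It had 56.6, 90.9 and 37.0 RPKM in GFP-hi and 63.1, 84.9 and 33.8 RPKM in GFP-lo replicates 1 to 3, and its log2 fold change of 0.02 (limma, adjusted p = 0.98) varied in sign between settings. Transcripts of GFP had 214, 262 and 215 against 216, 215 and 191 RPKM, with overlapping groups. Neither transcript thus separated the populations. Mean GFP RNA was nevertheless higher in the brighter population, at 231 against 207 RPKM. Its log2 fold change of 0.15 (limma, adjusted p = 0.42) kept its sign in all 18 alternatives. The labels rest on reporter brightness, which RNA does not measure, so they were not tested by these values.

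The genes most like Socs3 over the 6 libraries, by Pearson's r of log2(RPKM + 1) and with no p, were Ncf4 (0.998), Dnajc15 (0.996), Mif4gd (0.994), Tnfrsf23 (0.990) and Aldoa (0.989). Each was lower in the 3 GFP-hi libraries with replicate 1 the lowest of them, as Socs3 was, which follows from picking genes by likeness to Socs3. Their log2 fold changes ran from -0.34 to -0.14, and none had an adjusted p under 0.05 in limma. With each population's mean removed, the genes that moved most like Socs3 between replicates were Plrg1, Casd1 and Zcchc7 (each 0.999), Lamtor5 (0.997) and Rpl34 (0.996). Socs1 was most like Myl12b (0.993), Commd8 (0.989) and Hsd11b1 (0.987), and Cish was most like Polb (0.994), Ino80c (0.993) and Prpf38a (0.993). With 6 points and 9351 genes such values arise readily. Differences between the libraries in depth and in the response of the handling genes may enter any of them.

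The receptors that SOCS proteins restrain were then examined, from a list of 36 chains that signal through JAK kinases. Of these 19 were tested. In GFP-hi 4 were lower (21.1%, beside 1.49% of all tested genes) and none was higher (beside 2.46%). For 7 of the 19 the unadjusted p was under 0.05, beside 20.2% of all tested genes. The list was chosen with earlier results of these data known, so these shares are a description. The median log2 fold change was 0.00020, with 10 values above 0 and 9 below, beside 0.02 for all tested genes. Il7r encodes the receptor chain for interleukin 7, the survival cytokine of naive T cells. It had 68.1, 66.2 and 57.7 RPKM in GFP-hi against 119, 111 and 105 RPKM in GFP-lo replicates 1 to 3, with a fold change of -0.80 (log2; limma, adjusted p = 0.0022). Ifngr1, the ligand-binding chain of the interferon gamma receptor and a target of SOCS1 control, had 48.5, 52.1 and 52.2 against 73.4, 73.1 and 77.4 RPKM, with a fold change of -0.54 (log2; limma, adjusted p = 0.0024). Both genes kept an adjusted p under 0.05 in all 18 alternatives.

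Il6ra, the chain that binds interleukin 6 and pairs with gp130, had 14.7, 11.02 and 14.6 RPKM in GFP-hi and 19.8, 19.0 and 20.4 RPKM in GFP-lo replicates 1 to 3, and its fold change was -0.53 (log2; limma, adjusted p = 0.032). Il4ra, the interleukin 4 receptor chain, had 40.9, 37.3 and 40.3 against 59.8, 50.1 and 50.2 RPKM, with a fold change of -0.42 (log2; limma, adjusted p = 0.028). In both genes the populations did not overlap. The call of Il6ra was lost in 4 of the 6 fits that left out 1 library, all but those without GFP-hi replicates 2 and 3, with a limma adjusted p of at most 0.103. That of Il4ra was lost in all of these but the one without GFP-lo replicate 1, and in the 4 libraries with lower heat-shock genes, where the limma adjusted p was 0.11.

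Il6st, Il2rg and Il2rb, which encode partner chains, did not pass the threshold. Il6st, the gp130 gene, had 30.9 ± 4.58 and 31.3 ± 1.46 RPKM (SD, n = 3 each). Il2rg, the common gamma chain gene, had 302 ± 9.44 and 298 ± 12.1 RPKM (SD, n = 3 each). Il2rb, shared by the receptors for interleukins 2 and 15, had 79.4, 69.5 and 75.1 RPKM in GFP-hi and 68.6, 61.5 and 56.4 RPKM in GFP-lo replicates 1 to 3. Its GFP-hi libraries all lay above the GFP-lo libraries, with a log2 fold change of 0.26 and an interval from 0.07 to 0.45 (limma, adjusted p = 0.13). With array quality weights Il2rb passed, at 0.32 (limma, adjusted p = 0.0097).

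**Figure D4:**
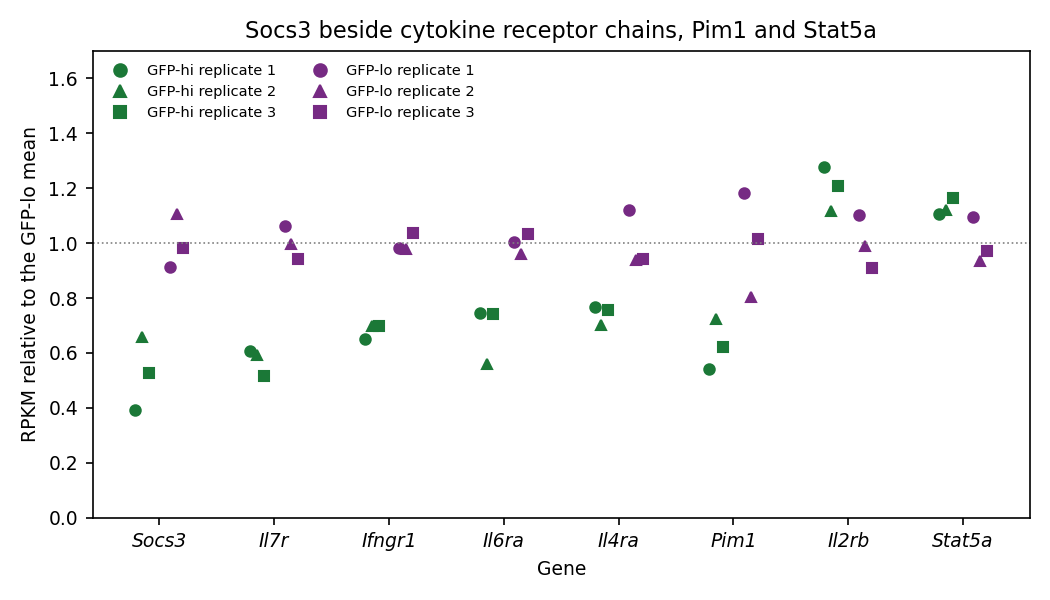
RPKM of Socs3, 5 receptor chain genes, Pim1 and Stat5a in each library, divided by the gene's GFP-lo mean. The GFP-hi points (green) of Socs3, Il7r, Ifngr1, Il6ra, Il4ra and Pim1 all lie below the GFP-lo points (purple), and those of Il2rb and Stat5a above them.

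JAK kinases and STAT factors stand between the receptors and the SOCS genes. Of 11 tested none passed the threshold (limma, adjusted p) and 1 had an unadjusted p under 0.05. With 3.95% and 20.2% of all tested genes doing so, a count of 0 among 11 is near the background and shows nothing about these genes, whose log2 fold changes ran from -0.06 to 0.17. Jak1 was the most abundant of the named ones, with 211 ± 8.01 and 210 ± 6.35 RPKM (SD, n = 3 each). Stat3, the factor that acts below gp130, had 25.8 ± 0.513 and 26.8 ± 1.99 RPKM (SD, n = 3 each), and its log2 fold change was -0.06 with an interval from -0.20 to 0.09. Jak2 had a log2 fold change of 0.06 (interval -0.11 to 0.24), Jak3 of 0.08 (-0.09 to 0.25) and Tyk2 of -0.04 (-0.23 to 0.15). The signs of Jak1 and Tyk2 varied between settings. Stat5a had 13.3, 13.4 and 13.9 RPKM in GFP-hi and 13.1, 11.2 and 11.6 RPKM in GFP-lo replicates 1 to 3, a log2 fold change of 0.17 with an interval from 0.01 to 0.32 (limma, adjusted p = 0.22), and passed with array quality weights at 0.23 (limma, adjusted p = 0.021). Stat5b had 60.1 ± 0.774 and 56.0 ± 4.08 RPKM (SD, n = 3 each).

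Other genes listed as targets of STAT5 or STAT3 were also examined. The list does not say whether either factor raises or lowers a gene. It was chosen with earlier results of these data known, so its shares are a description. Of 21 tested, 3 were higher in GFP-hi (14.3%, beside 2.46% of all tested genes) and none was lower (beside 1.49%). An unadjusted p under 0.05 was found for 7 of the 21, beside 20.2% of all tested genes. The median log2 fold change was 0.05, beside 0.02 for all tested genes. Gzmb, which encodes granzyme B, had 3.82, 3.38 and 3.26 against 0.949, 1.67 and 2.24 RPKM, with a fold change of 0.81 (log2; limma, adjusted p = 0.038). Bcl6, a transcriptional repressor, stood at 0.47 (log2; limma, adjusted p = 0.031), and Id2, an inhibitor of E proteins, at 0.36 (log2; limma, adjusted p = 0.040). All 3 calls were lost in the 4 libraries with lower heat-shock genes, where the limma adjusted p was 0.186 for Gzmb, 0.147 for Bcl6 and 0.151 for Id2. Gzmb also lost its call without GFP-hi replicate 1, 2 or 3 or GFP-lo replicate 2, and with a pseudocount of 0.1 (limma, adjusted p = 0.054). Bcl6 lost it without GFP-hi replicate 1 or 3 or GFP-lo replicate 2 or 3, and Id2 in every fit that left out 1 library other than the one without GFP-hi replicate 3. Pim1, a kinase gene induced by STAT3 and STAT5, had 6.11, 8.20 and 7.02 RPKM in GFP-hi and 13.4, 9.08 and 11.5 RPKM in GFP-lo replicates 1 to 3. The groups did not overlap and the log2 fold change was -0.59 (limma, adjusted p = 0.057). Pim1 passed the threshold in 4 alternatives, with a limma adjusted p of 0.032 in the 4 libraries with lower heat-shock genes, 0.0485 after scaling by trimmed mean of M values, 0.0124 under array quality weights and 0.0405 without GFP-lo replicate 2. Without another single library its limma adjusted p reached 0.157. The survival gene Bcl2 had a log2 fold change of -0.11 with an interval from -0.25 to 0.04.

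Transcripts of the ubiquitin ligase subunits that SOCS proteins join were detected in all 6 libraries. Elob, the elongin B gene, had 19.8 ± 1.62 and 17.9 ± 0.590 RPKM, and Eloc, the elongin C gene, 8.68 ± 0.939 and 8.28 ± 0.478 RPKM (SD, n = 3 each). Cul5, the scaffold, had 6.38 ± 0.342 and 6.28 ± 0.183 RPKM, and its RING partner Rnf7 had 20.2 ± 2.42 and 18.8 ± 0.287 RPKM (SD, n = 3 each). Of 11 such genes tested none passed the threshold (limma, adjusted p) and 2 had an unadjusted p under 0.05, beside 3.95% and 20.2% of all tested genes. Their median log2 fold change was 0.10. Among 14 other SOCS-box proteins tested and 14 other suppressors of JAK-STAT signalling tested, such as PIAS proteins and phosphatases, none passed the threshold (limma, adjusted p), and 2 of each had an unadjusted p under 0.05. At the background shares, these counts of 0 show nothing about the lists. Socs3, at a mean of 53.0 RPKM, was thus more abundant per length than Elob, Eloc, Cul5 and Rnf7.

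All 10 markers of naive CD8 T cells were listed, with a summed level of 2460 to 2670 RPKM in GFP-hi and 2590 to 2790 RPKM in GFP-lo libraries. Il7r, lower in GFP-hi as given above, is among these 10. Of 10 myeloid markers 2 were listed, from 18.8 RPKM summed upward in both populations and at most 24.6 RPKM in GFP-hi, and Lyz2, Csf1r and Tyrobp were not among the listed genes. Of 8 B cell markers 3 were listed (14.4 to 16.8 against 13.1 to 13.4 RPKM) and of 7 erythroid markers 2 (4.36 to 5.74 against 2.38 to 3.54 RPKM). Of 6 natural killer cell markers 2 were listed, at 5.71 to 8.61 against 6.34 to 8.33 RPKM summed. Of 5 CD4 T cell markers 2 were listed, Cd40lg and Izumo1r, at 17.2 to 26.2 against 36.2 to 47.8 RPKM summed, and Cd4 was not. Cd40lg made up most of this sum and was lower in GFP-hi (limma, adjusted p = 0.011), whereas Izumo1r was higher (limma, adjusted p = 0.00087). The 7 memory CD8 T cell markers summed to 121 to 139 RPKM in GFP-hi and 142 to 161 RPKM in GFP-lo libraries. This sum follows its most abundant members and does not give the direction of each marker. The part of these differences in the level of Socs3 was not tested.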

How the data were processed

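RNA of 6 libraries of sorted splenic CD8 T cells, 3 GFP-hi and 3 GFP-lo, was analysed. Per the labels' protocols, cDNA came from SMART-seq v4 and libraries from Nextera XT. Per the submitters' processing notes, STAR and mm10 were used, whereas the read counter, the annotation and why a gene was listed or not are not given in the sources used here. The values deposited by the authors are RPKM, per the file headers.

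Groups were taken from the reporter label. Replicates were numbered in record order, so numbers name libraries and were not used to pair them in any fit. The replicate 2 libraries, which shared high handling genes, were also set against each other without a test. For 15 genes a lost symbol was looked up by Entrez ID. Genes with a mean of at least 1 RPKM (9351 of 11162) were tested on log2(RPKM + 1) by limma 3.58.1 in R 4.3.3, with moderated variances that followed the mean level, two-sided, and Benjamini-Hochberg adjustment over all of them, at a threshold of 0.05. The procedure was tested on simulated data. Depth was sought as the library size at which 800 genes with 1 GENCODE M21 transcript gave whole reads, and 88.9% to 91.0% of low values came within 0.1 of a whole read. Figures were drawn with matplotlib 3.10.9.

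The members and gene lists were chosen with earlier results of these data known. By the naming rule the text names all members, up to 6 genes of each list with an adjusted p under 0.05, a fixed set of pathway genes, and the 5 or 3 genes most like Socs3, Socs1 and Cish in pattern, passing over predicted genes, except that 1 gene of the fixed set is not reported here. Cd40lg, Izumo1r, Ly6c2, Osm, Irf1 and Cebpb were picked after their values were seen. The 18 alternatives changed the pseudocount (0.1, 0.5), the filter (none, 5 RPKM), the scaling (median, quantile, unweighted trimmed mean of M values), the variance model (no trend, robust, array quality weights), the covariate and the libraries.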

Additional observations from a re-analysis of the deposited data

How the results depend on the processing

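All 18 alternatives kept Socs3 lower in GFP-hi, with log2 fold changes from -1.11 (without GFP-hi replicate 2) to -0.75 (without GFP-hi replicate 1), and Socs1 ran from -0.34 to -0.16. Socs4 turned from 0.04 to -0.0064 with array quality weights and to -0.033 without GFP-hi replicate 2, and Socs5 from 0.06 to -0.023 in the 4 libraries with lower Hspa1a and Hspa1b. Of the tested members, 2 passed with array quality weights (Socs3 and Socs1), and leaving out 1 library gave 0 to 1. Nothing is read from these counts of members. The set was chosen with this comparison in view, and the count over all genes moved as well. Of all genes, 202 passed with a minimum of 5 RPKM, where fewer genes were tested, 1282 with array quality weights, 740 with the handling covariate, 90 in the 4 libraries with lower Hspa1a and Hspa1b, where fewer samples entered, and 134 to 298 without 1 library. Of the pathway genes, 21 passed with array quality weights, 17 with the handling covariate and 2 to 7 without 1 library. For the weights, the covariate and the sign changes below the cause was not tested. Junb, which had not passed, did so in 4 alternatives and Hspa1a in 1. Log2 fold changes of other genes that had not passed turned sign as follows. With trimmed mean of M values scaling the values were -0.020 for Jak1, -0.0081 for Il2rg, -0.0043 for Cul5 and -0.0027 for Nr4a1. With array quality weights the values were -0.007 for Jak1, 0.049 for Tyk2, 0.078 for Il6st, -0.019 for Eloc and -0.42 for Nr4a1. With the 4 libraries the values were 0.091 for Il6st, -0.0058 for Rnf7 and -0.014 for Nr4a1. With quantile normalization the values were -0.0043 for Cul5 and -0.0042 for Nr4a1. With the handling covariate the values were 0.17 for Hspa1a and 0.14 for Hspa1b. Leaving out 1 library gave -0.023 to 0.031 for Jak1, -0.11 to 0.026 for Tyk2, -0.016 to 0.044 for Il2rg, -0.10 to 0.097 for Il6st, -0.021 to 0.11 for Eloc, -0.019 to 0.045 for Cul5, -1.34 to 0.42 for Hspa1a, -1.17 to 0.35 for Hspa1b and -0.34 to 0.34 for Nr4a1. No paired analysis was possible because the labels carry no replicate numbers and those used here follow record order. The replicate 2 libraries of both populations shared the high handling genes, and whether libraries of 1 number belong together is not given. With 24 to 57 reads per library, Cish is limited by depth.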
